A study of Homo sapiens with 45 samples.

Results

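The mRNA of 8 transcription and chromatin factors of the T lineage was followed across 4 human T-cell acute lymphoblastic leukaemia (T-ALL) lines. Subunits of the chromatin remodeller cBAF were targeted by guides in Jurkat, and its ATPases were inhibited in all 4 lines. The 8 factor genes were TCF7, LEF1, TOX, TOX2, SATB1, IKZF1, IKZF2 and IKZF3, taken by symbol, and both expression tables hold a row for each of them among 38557 genes. RNA-seq libraries came in 15 groups of 3. In Jurkat cells expressing Cas9, lentiviral guides against ARID1A (gARID1A), ARID1A and ARID1B (gARID1A_1B), SMARCA4 (gSMARCA4) or SMARCA4 and SMARCA2 (gSMARCA4_A2) were set against guides for the AAVS1 site (gAAVS1), all after 4 days of puromycin and at 10 days from transduction. The remaining libraries compare 1 uM BRM014, an inhibitor of the SMARCA4 and SMARCA2 ATPases, with 0.01% DMSO. The treatment lasted 6 h or 8 days in Jurkat and 6 h in CCRF-CEM, KOPT-K1 and TALL-1. ARID1A, ARID1B, SMARCA4 and SMARCA2 are cBAF subunits. Protein and complexes were not measured here. Whether other complexes that hold any of these subunits were affected was not tested. The sources used here do not say whether guide-carrying cells were clones or pools.

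TCF7 (the protein TCF-1) and LEF1 are related HMG-box proteins that bind the same DNA motif, recruit beta-catenin or Groucho/TLE co-repressors, and start and sustain the T-cell programme in the thymus. TOX and TOX2 are HMG-box factors known from CD4 T-cell development and from exhausted and follicular helper T cells. SATB1 organises chromatin loops in thymocytes. IKZF1 (Ikaros), IKZF2 (Helios) and IKZF3 (Aiolos) are zinc-finger proteins of 1 family that pair with each other, and IKZF1 is a tumour suppressor in lymphoid leukaemia that opposes NOTCH targets in mouse thymocytes.

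Depth, as recovered from the deposited values, was 29.67 to 47.93 M reads per library in Jurkat and 19.72 to 27.04 M elsewhere. Levels are in TPM, a unit scaled for gene length and for the library's total. All 10 T-cell markers reached 1 TPM in both tables. Their summed level was 1488 to 1551 TPM with BRM014 against 1999 to 2077 TPM with DMSO in Jurkat at 6 h, and 2175 to 2344 TPM with BRM014 against 1599 to 1692 TPM with DMSO at 8 days. It was 3229 to 3444 TPM with BRM014 against 4101 to 4327 TPM with DMSO in KOPT-K1, and 1549 to 1698 TPM in gARID1A against 1794 to 1849 TPM in gAAVS1. CD2 was below 1 TPM in CCRF-CEM with BRM014. The part of these shifts in the results below was not tested. Of 8 B-cell markers CD79A and CD79B alone reached 1 TPM, while PAX5 and EBF1 stayed below it (summed level 3.38 to 22.2 TPM in Jurkat libraries and 7.74 to 151 TPM in the other lines), and in Jurkat CEBPA was the single one of 8 myeloid markers to do so. The mRNA of the guide targets moved in part only. SMARCA4 averaged 44.2 TPM in gSMARCA4 and 49.9 TPM in gSMARCA4_A2, against 97.5 TPM in gAAVS1, and ARID1B 11.9 TPM in gARID1A_1B, against 22.7 TPM in gAAVS1. ARID1A averaged 83.1 TPM in gARID1A and 101 TPM in gARID1A_1B, against 94.4 TPM in gAAVS1, and SMARCA2 22.4 TPM in gSMARCA4_A2, against 21.8 TPM in gAAVS1. The ARID1A difference in gARID1A_1B and the SMARCA2 difference were not called, and the mRNA of an edited gene need not fall. Fewer cells of a kind and less mRNA per cell cannot be told apart in these bulk libraries.

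Differences below are log2 fold changes of TPM + 1 with their standard error, fitted with limma over all tested genes of a table, and a gene is called at an adjusted p under 0.05. In Jurkat cells 6 of the 8 factors fell after 6 h of BRM014 and none rose, where 47.4% of 17936 tested genes were called and 20.7% were called lower. After 8 days 3 rose and 4 fell, with 59.9% of genes called. Against gAAVS1, 1 rose and 4 fell in gARID1A (20.9% of genes called), 1 rose and all 7 others fell in gARID1A_1B (40%), 1 rose and 3 fell in gSMARCA4 (40.9%), and 2 rose and 3 fell in gSMARCA4_A2 (62.1%). The other lines have 7 factors to test, because TOX2 did not reach 1 TPM in any of their 18 libraries. There, 2 rose and 5 fell in CCRF-CEM (49.8% of 16241 genes called), 2 rose and 3 fell in KOPT-K1 (38.1%), and 2 rose and 5 fell in TALL-1 (45.9%). With so many genes called, these counts by themselves say little about the factors. Large falls were rarer among all genes. In Jurkat 4 of the 8 factors fell by 1 or more on the log2 scale at 6 h (1.54% of genes) and 3 at 8 days (2.14%). Against gAAVS1, 3 did so in gARID1A (0.58%), 3 in gARID1A_1B (1.34%), 3 in gSMARCA4 (0.976%) and 3 in gSMARCA4_A2 (1.3%), in each case TCF7, IKZF2 and IKZF3. Of the 7 factors in the other lines none did so in CCRF-CEM (3.54%), 2 in KOPT-K1 (2.31%) and 1 in TALL-1 (3.76%). A gene under 1 TPM in its control cannot fall by 1 on this scale. The tested genes include such genes, which lowers these shares. The median log2 fold change of the 8 factors was -0.87 at 6 h and -0.26 at 8 days in Jurkat, where the median over all tested genes was 0.04 and 0.08. It was -0.38 in gARID1A, -0.72 in gARID1A_1B, -0.36 in gSMARCA4 and -0.25 in gSMARCA4_A2 (all genes -0.03, -0.03, 0.04 and 0.11). Over the 7 factors of the other lines it was -0.56 in CCRF-CEM, 0.06 in KOPT-K1 and -0.51 in TALL-1 (all genes 0.05, 0.04 and 0.03). In gSMARCA4_A2 against gAAVS1 a median-ratio rescaling of the libraries brought the median of all genes to -0.03, so small rises there are read against that shift.

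**Figure D1:**
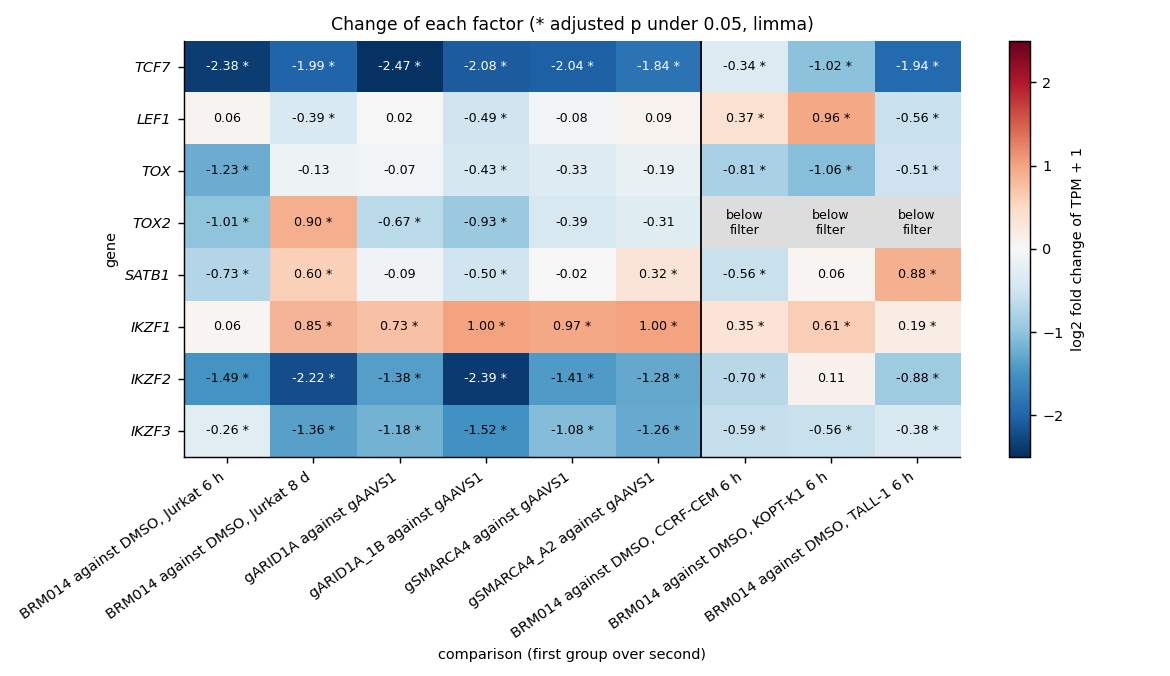
Log2 fold change of TPM + 1 for each factor (rows) in the 9 comparisons with a control (columns), with colour for size and an asterisk for an adjusted p under 0.05 in limma. TCF7 and IKZF3 are lower and called in every column, IKZF1 is higher and called in every column except BRM014 in Jurkat at 6 h, and LEF1 and SATB1 change sign between columns.

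TCF7 (chromosome 5, 134108218 to 134148210, GRCh38) was lower than its control in all 9 comparisons. In Jurkat at 6 h its level was 4.85, 3.90 and 3.80 TPM with BRM014, against 27.1, 27.2 and 23.2 TPM with DMSO. The groups lay far apart and the DMSO mean was 6.18 times the BRM014 mean (log2 fold change -2.38 ± 0.08, limma adjusted p = 3e-15), which placed TCF7 as the 11th lowest of 17936 fold changes. At 8 days it held 1.98, 2.49 and 2.12 TPM with BRM014, against 12.4, 12.0 and 10.8 TPM with DMSO (-1.99 ± 0.08). The 4 guide groups were low too. TCF7 stood at 1.60, 1.68 and 1.87 TPM in gARID1A, 2.40 to 2.68 TPM in gARID1A_1B, 2.55 to 2.76 TPM in gSMARCA4 and 2.98 to 3.40 TPM in gSMARCA4_A2, against 13.7, 14.58 and 13.9 TPM in gAAVS1. The gARID1A fold change of -2.47 ± 0.08 (limma adjusted p = 3e-15) was the 3rd lowest of all genes in that comparison, and the other 3 were -2.08, -2.04 and -1.84. DMSO cells themselves held less TCF7 at 8 days than at 6 h (-1.08 ± 0.08).

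In the 3 other lines TCF7 was lower with BRM014 as well. In TALL-1 it was 40.0, 42.5 and 41.9 TPM with BRM014, against 171, 168 and 146 TPM with DMSO (-1.94 ± 0.11, limma adjusted p = 3.5e-09). In KOPT-K1 it was 63.5, 67.3 and 84.8 TPM with BRM014, against 144, 145 and 147 TPM with DMSO (-1.02 ± 0.11). In CCRF-CEM it was 123, 119 and 107 TPM with BRM014, against 130.5, 138 and 179.6 TPM with DMSO, a change of -0.34 ± 0.11 (limma adjusted p = 0.021). The CCRF-CEM difference rested on the third replicates: without DMSO replicate 3 it was -0.20 (adjusted p = 0.11), without BRM014 replicate 3 it was -0.28 (adjusted p = 0.078), and without both it was -0.14 (adjusted p = 0.29). It was also not called with only the groups compared in the fit (limma adjusted p = 0.088).

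LEF1 (chromosome 4, 108047548 to 108168932, GRCh38), the close relative of TCF7, took another course. In Jurkat it was the most abundant of the 8, at 383.6 to 688.9 TPM over 27 libraries. At 6 h it was 443, 451 and 433 TPM with BRM014, against 422, 423 and 428 TPM with DMSO. The groups stood narrowly apart, with a difference of 0.06 whose 95% interval ran from -0.10 to 0.22 and which was not called. At 8 days it was 399, 440.4 and 422 TPM with BRM014, against 689, 494 and 488 TPM with DMSO (-0.39 ± 0.08, limma adjusted p = 0.00018). DMSO replicate 1 stood apart, and without it the change was -0.22 and still called. Of the guide groups gARID1A_1B alone passed the test for LEF1 in the shared fit, at 392, 405 and 384 TPM, against 554, 559 and 545 TPM in gAAVS1 (-0.49 ± 0.08, limma adjusted p = 2.9e-05). In gARID1A, gSMARCA4 and gSMARCA4_A2 it averaged 559, 524 and 589 TPM. The gSMARCA4 libraries (512 to 533 TPM) lay below those of gAAVS1, and the gSMARCA4_A2 libraries (579 to 595 TPM) above. With only the groups compared in the fit, LEF1 was called higher in gSMARCA4_A2 (0.09, limma adjusted p = 0.02). The median over all genes in that comparison was 0.11 in the shared fit.

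In the other lines LEF1 moved in opposite directions. KOPT-K1 held 478, 434 and 467 TPM with BRM014, against 237, 239 and 229 TPM with DMSO (0.96 ± 0.07, limma adjusted p = 7.8e-08). CCRF-CEM held 224, 248 and 243 TPM with BRM014, against 163, 193 and 196 TPM with DMSO (0.37 ± 0.07). TALL-1 held 87.5, 91.1 and 99.9 TPM with BRM014, against 142, 140.3 and 129.9 TPM with DMSO (-0.56 ± 0.07, limma adjusted p = 1.2e-05). The close relatives TCF7 and LEF1 therefore moved in opposite directions in KOPT-K1 and in the same direction in TALL-1. They also parted in CCRF-CEM, but the fall of TCF7 there lost its call without either of the third replicates.

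LEF1-AS1, a noncoding gene on the opposite strand at the LEF1 locus, has its own row in the tables. The Jurkat kit keeps no strand, and the kit of the other 3 lines does. Whether read counting used the strand is not given in the sources used here, so reads where LEF1 and LEF1-AS1 overlap may be shared between the rows. In TALL-1 it was 30.3, 28.6 and 29.8 TPM with BRM014, against 15.6, 17.5 and 14.1 TPM with DMSO (0.87 ± 0.07, limma adjusted p = 1.4e-07), while LEF1 itself fell. In KOPT-K1 it averaged 97.6 TPM with BRM014 and 44.6 TPM with DMSO (1.11 ± 0.07), and in CCRF-CEM 44.2 TPM with BRM014 and 32.2 TPM with DMSO (0.45 ± 0.07). LEF1-AS1 thus rose in all 3 lines, and LEF1 in 2 of them. In Jurkat, LEF1-AS1 averaged 87.0 TPM with BRM014 and 75.3 TPM with DMSO at 6 h. At 8 days it averaged 71.7 TPM with BRM014 and 82.5 TPM with DMSO. Among the guides it averaged 77.2 TPM in gARID1A, 54.9 TPM in gARID1A_1B, 74.1 TPM in gSMARCA4 and 89.4 TPM in gSMARCA4_A2, against 82.9 TPM in gAAVS1.

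**Figure D2:**
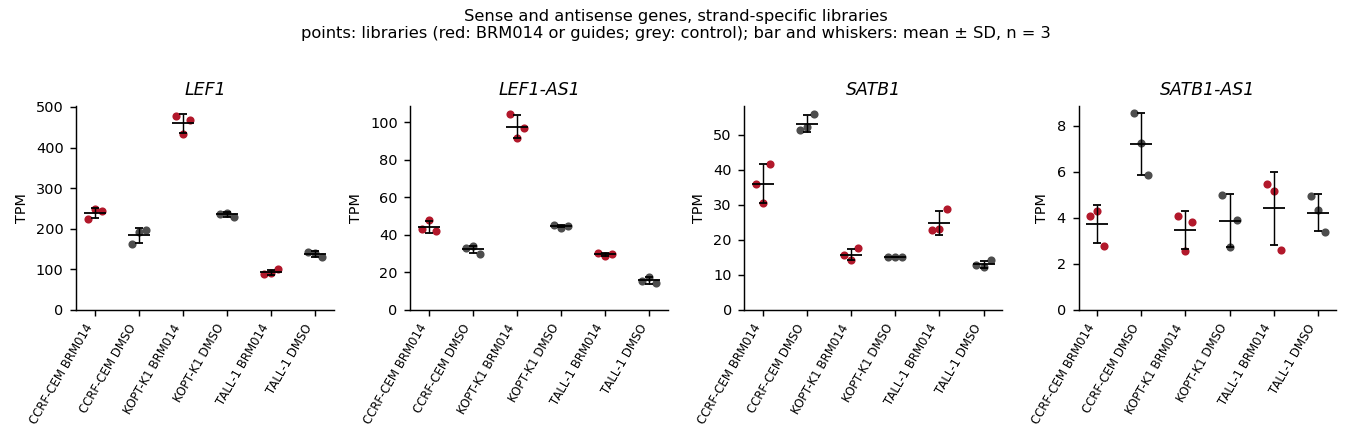
TPM of LEF1, LEF1-AS1, SATB1 and SATB1-AS1 in CCRF-CEM, KOPT-K1 and TALL-1, with each library as a point, BRM014 left of DMSO, and the mean ± SD of 3 libraries. In TALL-1, LEF1 is lower and LEF1-AS1 higher with BRM014, and SATB1 is higher while the SATB1-AS1 groups overlap.

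The 250 bases before an annotated RefSeq start (GRCh38.p14) are shown for TCF7 and LEF1, the relatives that parted, to let their base composition and motif content be compared. The TCF7 window is chr5:134115363-134115612 on the plus strand and the LEF1 window chr4:108166302-108166551 on the minus strand, both read 5′ to 3′ toward the gene. Both windows lie inside the span of their gene given above, so each precedes a start within the gene and not its outermost start. Capitals mark matches on either strand to short motifs. TCF/LEF factors were searched as CTTTGA. The RUNX family was searched as TGTGGT. The core bound by Ikaros proteins was searched as TGGGAA. The box of SP and KLF factors was searched as GGGCGG. ETS proteins were searched as CCGGAA. The motif of the GATA family was searched as AGATAA.
TCF7: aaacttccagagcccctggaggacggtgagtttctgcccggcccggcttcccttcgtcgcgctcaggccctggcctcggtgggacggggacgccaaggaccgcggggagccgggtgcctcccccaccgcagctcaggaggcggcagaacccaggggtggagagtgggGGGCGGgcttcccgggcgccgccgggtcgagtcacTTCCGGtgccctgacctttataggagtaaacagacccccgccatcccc
LEF1: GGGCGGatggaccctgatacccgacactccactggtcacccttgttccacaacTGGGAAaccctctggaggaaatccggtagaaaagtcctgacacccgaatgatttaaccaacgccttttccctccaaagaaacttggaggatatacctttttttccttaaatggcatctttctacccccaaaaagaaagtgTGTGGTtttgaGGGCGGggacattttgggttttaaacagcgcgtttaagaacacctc
The TCF7 window is 70.8% G or C with 22 CpG and holds 1 SP/KLF and 1 ETS match. The LEF1 window is 47.6% G or C with 8 CpG and holds 2 SP/KLF, 1 Ikaros and 1 RUNX match. The median of 35114 human windows is 58% G or C, and 42.6% of them hold the SP/KLF letters, 14.5% the ETS, 20.8% the Ikaros and 11.0% the RUNX letters. Neither window holds the TCF/LEF letters, which are in 11.2% of windows, or the GATA letters, which are in 9.17%. The E-box was searched too, as CANNTG, and is not marked by capitals. It is in 61.8% of windows, with 1 match in the LEF1 window and 0 in that of TCF7. No binding was measured, so a match is a description of letters only.

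TOX (chromosome 8, 58805412 to 59119147) fell within 6 h of BRM014 in all 4 lines. In Jurkat it was 46.6, 71.6 and 40.8 TPM with BRM014, against 111, 154 and 107 TPM with DMSO, and replicate 2 was the highest of both groups (-1.23 ± 0.15, limma adjusted p = 1.2e-06). In KOPT-K1 it was 33.9, 29.9 and 34.6 TPM with BRM014, against 74.7, 66.3 and 66.9 TPM with DMSO (-1.06 ± 0.08). CCRF-CEM averaged 38.7 TPM with BRM014 and 69.1 TPM with DMSO (-0.81 ± 0.08), and TALL-1 38.2 TPM with BRM014 and 54.9 TPM with DMSO (-0.51 ± 0.08). After 8 days in Jurkat the groups overlapped, at 88.7, 96.1 and 109 TPM with BRM014 against 122, 102 and 98.4 TPM with DMSO, and the difference of -0.13 (95% interval -0.45 to 0.18) was not called.

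Among the guides TOX was lowest in gARID1A_1B, at 74.3, 75.8 and 76.7 TPM, against 112, 96.9 and 98.2 TPM in gAAVS1 (-0.43 ± 0.15, limma adjusted p = 0.029). That call was lost without gAAVS1 replicate 1 (-0.36, adjusted p = 0.11) and without any of the 3 gARID1A_1B libraries (adjusted p = 0.058 to 0.069). TOX averaged 97.5 TPM in gARID1A, 81.1 TPM in gSMARCA4 and 89.8 TPM in gSMARCA4_A2, with no call against the 102 TPM of gAAVS1. The gSMARCA4 difference of -0.33 became a call after rescaling (-0.37, adjusted p = 0.04), and so did that of gSMARCA4_A2 (-0.34, adjusted p = 0.041). With only the groups compared in the fit, TOX was called lower in gSMARCA4 (limma adjusted p = 0.0034) and in gSMARCA4_A2 (limma adjusted p = 0.039).

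TOX2 (chromosome 20, 43914852 to 44069616, GRCh38) reached 1 TPM in Jurkat alone, where all 27 libraries did, and it turned round between the times. At 6 h it was 4.58, 6.44 and 5.60 TPM with BRM014, against 9.22, 17.6 and 10.9 TPM with DMSO (-1.01 ± 0.21, limma adjusted p = 0.00049). At 8 days it was 21.7, 24.2 and 27.0 TPM with BRM014, against 19.6, 11.1 and 8.82 TPM with DMSO (0.90 ± 0.21, limma adjusted p = 0.00099). The spread of the DMSO libraries was wide, yet the groups did not overlap at either time.

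Both ARID1A groups held less TOX2, at 11.6, 11.0 and 10.2 TPM in gARID1A and 10.1, 8.71 and 8.23 TPM in gARID1A_1B, against 19.2, 18.8 and 16.2 TPM in gAAVS1. The changes were -0.67 ± 0.21 (limma adjusted p = 0.027) and -0.93 ± 0.21 (limma adjusted p = 0.0014). The gARID1A call was lost in 4 of the 6 fits that left out a library of the pair, with adjusted p = 0.067 to 0.09. In gSMARCA4 and gSMARCA4_A2 TOX2 averaged 13.5 and 14.4 TPM, and the differences of -0.39 and -0.31 were not called in the shared fit. With only the groups compared in the fit, TOX2 was called lower in both (limma adjusted p = 0.0044 and 0.024). In TALL-1 it was read 18, 10 and 8 times per library with BRM014, against 2, 3 and 1 times with DMSO, in groups that did not overlap but lay under the level tested. In CCRF-CEM and KOPT-K1 no library held more than 3 TOX2 reads.

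SATB1 (chromosome 3, 18345377 to 18445592, GRCh38) also reversed with time in Jurkat. At 6 h it was 44.0, 47.6 and 42.0 TPM with BRM014, against 76.4, 74.5 and 72.0 TPM with DMSO (-0.73 ± 0.05, limma adjusted p = 2.7e-10). At 8 days it was 137, 145 and 144 TPM with BRM014, against 91.4, 89.3 and 98.6 TPM with DMSO (0.60 ± 0.05, limma adjusted p = 1.9e-09). The guides parted by target. In gARID1A_1B it was 64.9, 62.0 and 59.3 TPM, against 92.1, 86.4 and 86.2 TPM in gAAVS1 (-0.50 ± 0.05), and in gSMARCA4_A2 it was 114, 109 and 108 TPM (0.32 ± 0.05, or 0.16 with adjusted p = 0.008 after rescaling). In gARID1A and gSMARCA4 it averaged 83.1 and 87.2 TPM and was not called.

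The other lines differed as much for SATB1. TALL-1 held 22.7, 23.1 and 28.8 TPM with BRM014, against 12.7, 12.2 and 14.1 TPM with DMSO (0.88 ± 0.11, limma adjusted p = 7.3e-06). CCRF-CEM held 36.0, 30.6 and 41.7 TPM with BRM014, against 51.5, 52.3 and 56.1 TPM with DMSO (-0.56 ± 0.11, limma adjusted p = 0.0005). KOPT-K1 averaged 15.8 TPM with BRM014 and 15.1 TPM with DMSO, and its difference of 0.06 had a 95% interval from -0.17 to 0.29. The antisense gene SATB1-AS1 averaged 4.42 TPM with BRM014 and 4.22 TPM with DMSO in TALL-1 (0.02, 95% interval -0.49 to 0.53) and 3.73 TPM with BRM014 and 7.22 TPM with DMSO in CCRF-CEM (-0.80 ± 0.24, limma adjusted p = 0.011). In Jurkat, where its reads and those of SATB1 cannot be told apart where the genes overlap, it averaged 11.6 TPM with BRM014 and 14.4 TPM with DMSO at 6 h and 25.0 TPM with BRM014 and 15.0 TPM with DMSO at 8 days.

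**Figure D3:**
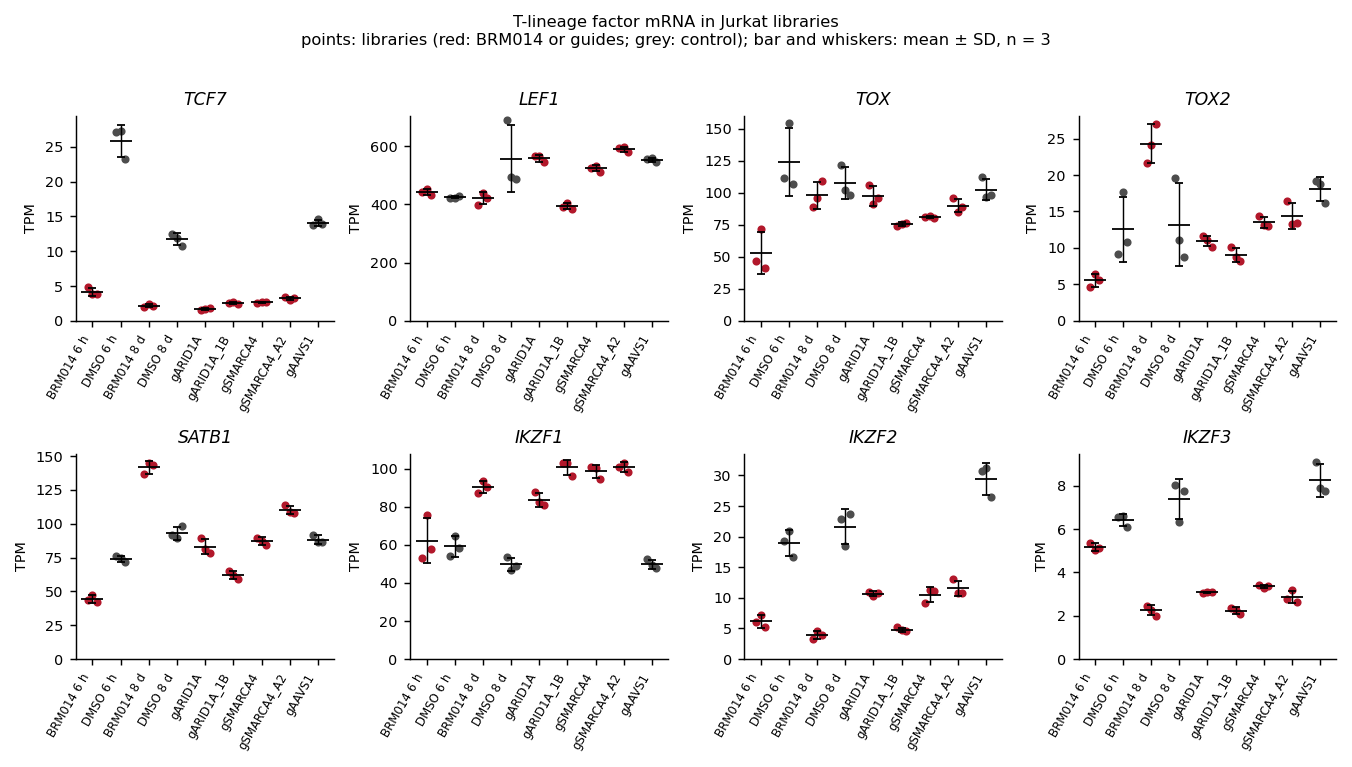
TPM of the 8 factors in the 9 Jurkat groups, each library as a point (BRM014 and guides against cBAF subunits in red, DMSO and gAAVS1 in grey) with the mean ± SD of 3. TCF7, IKZF2 and IKZF3 are low in the 4 groups with guides against cBAF subunits and with BRM014 at 8 days, where IKZF1 is high.

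The 3 Ikaros-family genes parted from each other in Jurkat. IKZF1 (chromosome 7, 50303455 to 50405101, GRCh38) was 53.2, 75.7 and 57.8 TPM with BRM014 at 6 h, against 54.2, 64.9 and 58.6 TPM with DMSO, in groups that overlapped (0.06, 95% interval -0.12 to 0.24). At 8 days it was 87.5, 93.8 and 90.3 TPM with BRM014, against 53.7, 47.1 and 48.7 TPM with DMSO, 1.82 times the DMSO mean (0.85 ± 0.09, limma adjusted p = 2.3e-08). It rose in all 4 guide groups too. It was 87.9, 82.3 and 80.8 TPM in gARID1A, 103, 103 and 96.3 TPM in gARID1A_1B, 101, 100.5 and 94.8 TPM in gSMARCA4 and 101, 103 and 98.2 TPM in gSMARCA4_A2, against 52.5, 49.6 and 47.6 TPM in gAAVS1. The log2 fold changes were 0.73, 1.00, 0.97 and 1.00, each with a standard error of 0.09, and 0.73 in gARID1A was the 126th highest of 17936.

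IKZF1 also rose within 6 h in KOPT-K1, at 74.7, 76.1 and 77.7 TPM with BRM014 against 49.8, 52.2 and 47.1 TPM with DMSO (0.61 ± 0.07, limma adjusted p = 5.5e-06), and in CCRF-CEM, at 69.9, 70.4 and 75.4 TPM with BRM014 against 54.4, 61.0 and 53.5 TPM with DMSO (0.35 ± 0.07). In TALL-1 it averaged 60.5 ± 0.68 TPM with BRM014 and 53.0 ± 5.76 TPM with DMSO (SD, n = 3 each). The change of 0.19 ± 0.07 there (limma adjusted p = 0.033) was lost after rescaling (0.12, adjusted p = 0.14) and without TALL-1 DMSO replicate 3 (0.12, adjusted p = 0.18). It was also lost without DMSO replicate 1 or any single BRM014 library (adjusted p = 0.062 to 0.081).

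IKZF2 (chromosome 2, 212999698 to 213152456, GRCh38) fell at both times in Jurkat. It was 6.05, 7.23 and 5.17 TPM with BRM014 at 6 h, against 19.3, 21.0 and 16.7 TPM with DMSO (-1.49 ± 0.12, limma adjusted p = 1.1e-09). At 8 days it was 3.23, 4.52 and 3.86 TPM with BRM014, against 22.9, 18.4 and 23.6 TPM with DMSO (-2.22 ± 0.12, limma adjusted p = 8.4e-13). The lowest guide level was in gARID1A_1B, at 5.17, 4.77 and 4.51 TPM, against 30.8, 31.1 and 26.4 TPM in gAAVS1 (-2.39 ± 0.12, the 14th lowest of 17936). In gARID1A, gSMARCA4 and gSMARCA4_A2 it averaged 10.7, 10.5 and 11.5 TPM (-1.38, -1.41 and -1.28).

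In TALL-1 IKZF2 was 4.97, 5.55 and 6.36 TPM with BRM014, against 11.0, 11.7 and 10.9 TPM with DMSO (-0.88 ± 0.09), and in CCRF-CEM 7.69, 7.32 and 7.22 TPM with BRM014, against 12.5, 14.9 and 10.9 TPM with DMSO (-0.70 ± 0.09). KOPT-K1 held 23.3, 23.0 and 23.3 TPM with BRM014, against 21.9, 21.8 and 20.6 TPM with DMSO. The groups stood narrowly apart. The difference of 0.11 was not called, and the 95% interval from -0.08 to 0.30 does not reach the falls of the other lines.

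IKZF3 (chromosome 17, 39757715 to 39864312, GRCh38) fell in all 9 comparisons, a little at 6 h in Jurkat and by more later. It was 5.37, 5.03 and 5.13 TPM with BRM014 at 6 h, against 6.56, 6.62 and 6.08 TPM with DMSO (-0.26 ± 0.08, limma adjusted p = 0.0065), and 2.47, 2.29 and 2.01 TPM with BRM014 at 8 days, against 8.05, 6.34 and 7.78 TPM with DMSO (-1.36 ± 0.08, limma adjusted p = 1.8e-12). In the guide groups it averaged 3.09 TPM in gARID1A, 2.23 TPM in gARID1A_1B, 3.35 TPM in gSMARCA4 and 2.87 TPM in gSMARCA4_A2, against 8.25 TPM in gAAVS1 (-1.18, -1.52, -1.08 and -1.26). KOPT-K1 held 5.21, 4.88 and 4.75 TPM with BRM014, against 7.93, 8.11 and 7.33 TPM with DMSO (-0.56 ± 0.10).

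CCRF-CEM and TALL-1 held little IKZF3, and 7 of the 18 libraries of the 3 lines reached 1 TPM, 6 of them KOPT-K1. CCRF-CEM libraries had 27, 32 and 28 IKZF3 reads with BRM014, against 68, 72 and 105 with DMSO. TALL-1 libraries had 14, 25 and 9 reads with BRM014, against 42, 45 and 60 with DMSO. The groups did not overlap in either line. At this level the added 1 TPM shrinks a fold change: it was -0.59 in CCRF-CEM and -0.38 in TALL-1, but -1.36 and -1.22 with 0.1 TPM added and -1.59 and -1.58 by limma-voom on the recovered reads.

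The 250 bases before an annotated start are shown for IKZF1, which rose, and IKZF2, which fell, with the same motifs in capitals. The windows are chr7:50304466-50304715 on the plus strand and chr2:213152457-213152706 on the minus strand (GRCh38.p14, from RefSeq), the first inside the span of its gene and the second just before it.
IKZF1: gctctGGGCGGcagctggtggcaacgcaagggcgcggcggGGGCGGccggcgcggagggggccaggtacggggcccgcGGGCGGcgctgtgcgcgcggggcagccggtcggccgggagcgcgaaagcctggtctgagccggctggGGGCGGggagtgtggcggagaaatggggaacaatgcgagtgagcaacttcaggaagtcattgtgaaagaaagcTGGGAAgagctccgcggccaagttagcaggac
IKZF2: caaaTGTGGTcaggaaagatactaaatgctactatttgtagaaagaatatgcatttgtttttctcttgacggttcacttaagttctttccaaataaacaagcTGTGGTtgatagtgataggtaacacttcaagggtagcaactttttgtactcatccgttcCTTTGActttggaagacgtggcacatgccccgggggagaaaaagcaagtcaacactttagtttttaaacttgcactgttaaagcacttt
The IKZF1 window is 71.2% G or C with 28 CpG and holds 4 SP/KLF matches and 1 Ikaros match, 32 bases before the start. The IKZF2 window is 38% G or C with 4 CpG and holds 2 RUNX matches and 1 TCF/LEF match, which starts 89 bases before the gene. RUNX letters are in 11.0% and TCF/LEF letters in 11.2% of all windows of this length. The E-box, not marked by capitals, has 1 match in the IKZF1 window and 3 in the IKZF2 window. Among the TOX2 and SATB1 windows, the other 2 examined, neither holds TCF/LEF, GATA or RUNX letters.

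Time separated the factors in Jurkat. The difference between the 8-day and the 6-h effect of BRM014 was called for all 8, where 44.2% of genes were called. The effect grew more negative for IKZF3, IKZF2 and LEF1. It turned from a fall at 6 h into a rise at 8 days for SATB1 and TOX2, a fall of TOX was not called at 8 days, and the rise of IKZF1 was called only at 8 days. For TCF7 the difference of 0.38 ± 0.11 (limma adjusted p = 0.0083) was lost with 0.1 TPM added (0.23, adjusted p = 0.18) and by limma-voom (0.20, adjusted p = 0.21). The 2 times have separate DMSO groups, and between those DMSO groups 4 of the 8 factors differed, with 35.3% of genes called. SATB1 (0.32 ± 0.05) and LEF1 (0.37 ± 0.08) were higher at 8 days, and TCF7 and IKZF1 (-0.24 ± 0.09) lower. LEF1 was 0.21 without DMSO replicate 1 of 8 days and was not called with only these groups in the fit (adjusted p = 0.11). The IKZF1 call was lost without DMSO replicate 2 or 3 of either time (adjusted p = 0.066 to 0.15), with no filter (adjusted p = 0.062), without mitochondrial genes (adjusted p = 0.075) and with only these groups in the fit (adjusted p = 0.098).

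**Figure D4:**
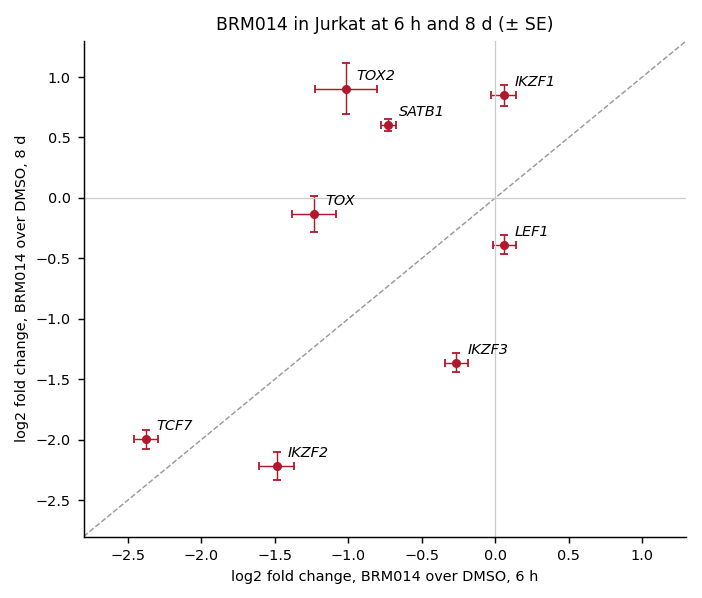
Log2 fold change of each factor with BRM014 over DMSO in Jurkat at 6 h (horizontal) and 8 days (vertical), with standard errors and a dashed line of equal change. TOX2 and SATB1 lie left of 0 and above 0, IKZF1 and IKZF3 lie near 0 at 6 h and on opposite sides at 8 days, and TCF7 and IKZF2 are far below 0 on both axes.

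The guide groups were also set against each other, which involves no shared control. In gARID1A_1B against gARID1A 2 factors were higher and 4 lower (20.9% of genes called). IKZF2 was lower by the most, at 4.82 ± 0.33 TPM in gARID1A_1B and 10.7 ± 0.39 TPM in gARID1A (SD, n = 3 each; -1.005 ± 0.12, limma adjusted p = 2.2e-06). LEF1 (-0.50), SATB1 (-0.42) and IKZF3 (-0.34) were lower too. TCF7 was higher, at 2.56 ± 0.15 TPM in gARID1A_1B and 1.72 ± 0.14 TPM in gARID1A (0.39 ± 0.08, limma adjusted p = 0.0012, or 0.60 by limma-voom). IKZF1 was higher by 0.27 ± 0.09 (limma adjusted p = 0.03), a call lost without gARID1A replicate 2 or 3, or gARID1A_1B replicate 1 or 2 (adjusted p = 0.085 to 0.1).

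In gSMARCA4_A2 against gSMARCA4, SATB1 was higher by 0.33 ± 0.05 (limma adjusted p = 4.5e-05, 0.22 after rescaling) and TCF7 by 0.21 ± 0.08 (limma adjusted p = 0.044), where 38.8% of genes were called and 26.5% called higher (4751 higher and 2202 lower, or 2753 and 4331 after rescaling). The TCF7 call was lost after rescaling (0.12, adjusted p = 0.23) and in 5 of 6 fits that left out a library (adjusted p = 0.061 to 0.15). In gSMARCA4 against gARID1A, TCF7 was higher by 0.43 ± 0.08 (limma adjusted p = 0.00021) and IKZF1 by 0.24 ± 0.09 (limma adjusted p = 0.035), with 38.4% of genes called and 27.3% called higher (4896 higher and 1989 lower, or 3357 and 3403 after rescaling). IKZF1 was no longer called after rescaling (0.15, adjusted p = 0.12) or without gARID1A replicate 2 or 3, or gSMARCA4 replicate 1 or 2 (adjusted p = 0.089 to 0.11).

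In gSMARCA4_A2 against gARID1A_1B 6 factors were higher and none lower, with 57.1% of genes called, 43.2% called higher and a median over all genes of 0.16. Over all genes, 7740 were called higher and 2510 lower, or 4335 and 5225 after rescaling. IKZF2 (1.10 ± 0.12), SATB1 (0.82 ± 0.05) and LEF1 (0.58 ± 0.08) were higher and kept their calls after rescaling. IKZF3 (0.26), TCF7 (0.24) and TOX2 (0.62) were called as well, and lost their calls after rescaling, at 0.12, 0.10 and 0.44 (adjusted p = 0.13, 0.27 and 0.071). TCF7 and TOX2 also lost them without gARID1A_1B replicate 3 (adjusted p = 0.055 and 0.059) or gSMARCA4_A2 replicate 1 (adjusted p = 0.053 and 0.073). IKZF1 averaged 101 TPM in both groups (0.00, 95% interval -0.18 to 0.18), and the difference became -0.19 after rescaling (adjusted p = 0.039).

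With DMSO alone, the 3 lines other than Jurkat held several of these factors at different levels. SATB1 averaged 53.3 ± 2.46 TPM in CCRF-CEM DMSO libraries, against 15.1 ± 0.09 TPM in KOPT-K1 (1.75 ± 0.11, limma adjusted p = 9.8e-10). IKZF3 averaged 0.99 ± 0.31 TPM in CCRF-CEM and 0.53 ± 0.11 TPM in TALL-1, against 7.79 ± 0.41 TPM in KOPT-K1. IKZF2 averaged 12.8 TPM in CCRF-CEM and 11.2 TPM in TALL-1, against 21.4 TPM in KOPT-K1. TOX averaged 54.9 TPM in TALL-1, against 69.1 TPM in CCRF-CEM and 69.3 TPM in KOPT-K1. LEF1 was ordered KOPT-K1, CCRF-CEM, TALL-1, at 235, 184 and 137 TPM, with no overlap between neighbours. TCF7 (145 to 162 TPM) and IKZF1 (49.7 to 56.3 TPM) overlapped between neighbours of the order. The ends of the IKZF1 order did not overlap, at 53.5 to 61.0 TPM in CCRF-CEM and 47.1 to 52.2 TPM in KOPT-K1. IKZF1 was called higher in CCRF-CEM than in KOPT-K1. That call was lost after rescaling (0.14, limma adjusted p = 0.067) and with only these groups in the fit (limma adjusted p = 0.069). It was also lost with no filter (limma adjusted p = 0.056) and without CCRF-CEM DMSO replicate 2 (0.12, limma adjusted p = 0.18). The factors called were 5 of 7 in CCRF-CEM against KOPT-K1, 4 in TALL-1 against CCRF-CEM and 4 in TALL-1 against KOPT-K1, where 62.5%, 67.6% and 70.5% of genes were called. With shares of all genes this high, such counts say little about the factors. All those called in TALL-1 were lower there, where 35% of genes were lower than in CCRF-CEM and 35.1% lower than in KOPT-K1.

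**Figure D5:**
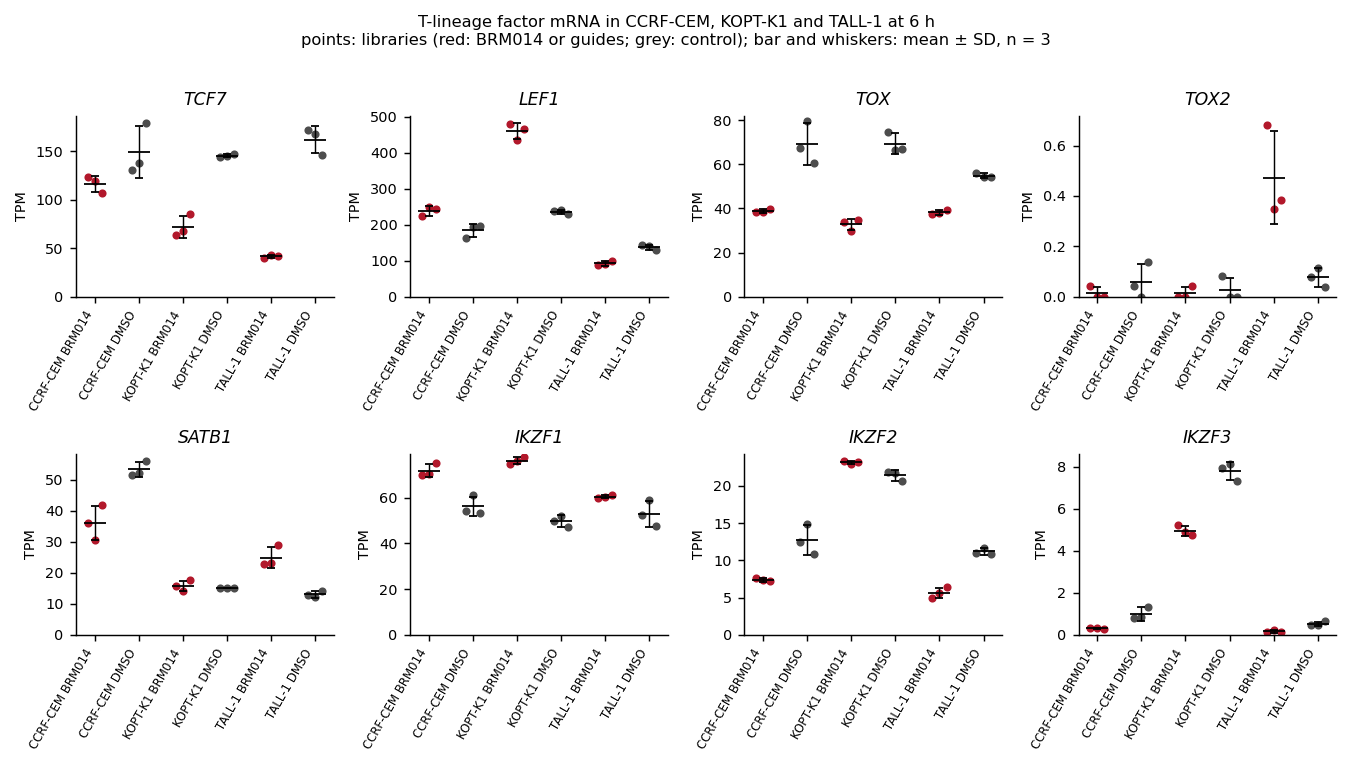
TPM of the 8 factors in CCRF-CEM, KOPT-K1 and TALL-1 after 6 h, each library as a point, BRM014 (red) left of DMSO (grey), with the mean ± SD of 3. TCF7 and TOX are lower with BRM014 in each line, LEF1 and SATB1 differ in direction between lines, and TOX2 stays under 1 TPM.

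Whether the BRM014 effect differed between the lines was tested directly. It differed for 4 of 7 factors between CCRF-CEM and KOPT-K1 (18.3% of genes called), 3 between TALL-1 and CCRF-CEM (20.4%) and 6 between TALL-1 and KOPT-K1 (21.4%). LEF1, SATB1 and TCF7 differed in each of the 3 tests. IKZF3 was not called in any, although at its few reads the difference between CCRF-CEM and KOPT-K1 was -0.02 on the scale of TPM + 1 and -0.93 by limma-voom (adjusted p = 0.021). Jurkat was not set against the other lines, since kit and extraction differ along with the line.

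By level, Jurkat groups fell in an order that differed from factor to factor. TCF7 was highest with DMSO at 6 h, then in gAAVS1 and with DMSO at 8 days, then with BRM014 at 6 h and in gSMARCA4_A2, each apart from the next. Below these gSMARCA4 overlapped gARID1A_1B, which overlapped BRM014 at 8 days, and gARID1A was lowest and apart. IKZF2 was highest in gAAVS1 and lowest with BRM014 at 8 days and in gARID1A_1B, which overlapped. By mean, LEF1 was highest in gSMARCA4_A2 and lowest in gARID1A_1B, which overlapped BRM014 at 8 days. SATB1 and TOX2 were highest with BRM014 at 8 days and lowest with BRM014 at 6 h, apart from their neighbours at both ends. IKZF1 was highest in gARID1A_1B, gSMARCA4_A2 and gSMARCA4, which overlapped, and lowest in gAAVS1 and with DMSO at 8 days, which overlapped too. IKZF3 ran nearly the other way, with gAAVS1 and both DMSO groups at the top and gARID1A_1B and BRM014 at 8 days at the bottom.

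Over the 9 Jurkat group means, IKZF1 and IKZF3 had a Pearson correlation of -0.95 and SATB1 and TOX2 of 0.93, on the log2 scale of TPM + 1. TCF7 correlated at 0.87 with IKZF3 and at 0.01 with LEF1. Groups share controls and culture times, so these are descriptions. In the 6 groups of the other lines IKZF1 and IKZF3 stood at -0.10, and IKZF2 and IKZF3 at 0.93 (0.83 in Jurkat). Of 1706 genes, those most like TCF7 over the Jurkat groups were NOTCH3 (0.98), SLIT1 (0.96) and SH3TC1 (0.94). In the 6 other groups the same genes stood at 0.06, 0.81 and 0.20. For IKZF2 the nearest gene was RCBTB2, at 0.95 in Jurkat and 0.91 elsewhere, for IKZF3 it was SLC44A1 (0.98 and 0.58), and for IKZF1 it was KCNH2 (0.97 and 0.42). LEF1 was nearest to LIG4 (0.84 and 0.78), TOX to FAM174B (0.97 and 0.04), SATB1 to FGFR1 (0.96 and 0.64) and TOX2 to PREX1 (0.95 in Jurkat).

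Genes that work with these factors were followed as lists. Of 20 partners and Wnt-arm genes of TCF7 and LEF1, 15 were higher and 2 lower with BRM014 at 8 days in Jurkat, with a median log2 fold change of 0.22 where all genes had 0.08. Over all 17936 genes 6612 were called higher and 4127 lower there, or 5302 and 5503 after rescaling. In gSMARCA4_A2 15 of the 20 were higher and 3 lower (median 0.31, all genes 0.11), where 7337 of all genes were higher and 3793 lower, or 5070 and 6065 after rescaling. The list counts in both comparisons are without rescaling. They can be read only against the counts of all genes without rescaling. The ARID1A groups went the other way. In gARID1A 0 were higher and 7 lower (median -0.13, all genes -0.03, 20.9% of all genes called). In gARID1A_1B 4 were higher and 9 lower (median -0.15, all genes -0.03, 40% called). In gSMARCA4 8 were higher and 4 lower (median 0.11, all genes 0.04, 40.9% called). At 6 h in Jurkat 7 were higher and 6 lower (median -0.02), with 47.4% of all genes called. TCF7L2, the relative of TCF7 that serves Wnt signalling in many tissues, was among those that rose. It averaged 15.9 TPM with BRM014 and 7.68 TPM with DMSO at 8 days in Jurkat (0.96, limma adjusted p = 3.1e-10), and 7.71 TPM with BRM014 and 2.28 TPM with DMSO in TALL-1 (1.41, limma adjusted p = 2e-09). In CCRF-CEM the co-repressor gene TLE3 fell by 1.42, to 16.0 TPM with BRM014 against 44.9 TPM with DMSO.

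Of 19 tested T-cell genes reported downstream of TCF7, 2 were higher and 12 lower with BRM014 at 6 h in Jurkat (median -0.54), 3 higher and 11 lower in CCRF-CEM (median -0.47), 6 higher and 10 lower in KOPT-K1 (median -0.60) and 6 higher and 6 lower in TALL-1 (median 0.00), against medians over all genes of 0.03 to 0.05. The share of all genes called in those 4 comparisons was 47.4%, 49.8%, 38.1% and 45.9%. BCL11B, a T-lineage commitment factor, fell in all 4 lines. It averaged 16.2 TPM with BRM014 and 55.6 TPM with DMSO in Jurkat at 6 h (-1.72), and 5.59 TPM with BRM014 and 35.4 TPM with DMSO in CCRF-CEM (-2.47). TALL-1 also had CD3G, a chain of the T-cell receptor complex, at 627 TPM with BRM014 and 220.2 TPM with DMSO (1.51). At 8 days in Jurkat 8 of the 19 were higher and 9 lower (median -0.25), with 59.9% of all genes called and SLAMF6, a surface receptor, at 146 TPM with BRM014 and 34.2 TPM with DMSO.

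Of 5 tested NOTCH-linked genes that Ikaros represses in mouse thymocytes, none was higher and 2 lower with BRM014 at 6 h in Jurkat, a share near the 47.4% of all genes called. At 8 days 3 were higher and 2 lower, with 59.9% of all genes called. In gARID1A_1B, with 40% of all genes called, 2 were higher and 3 lower, with DTX1, a NOTCH target, at 8.82 TPM in gARID1A_1B and 48.5 TPM in gAAVS1 (-2.34), and NRARP, another NOTCH target, at 6.26 TPM in gARID1A_1B and 1.85 TPM in gAAVS1 (1.35). Of 6 tested in the other lines, none was higher and 4 lower with BRM014 in CCRF-CEM (median -1.15, 49.8% of all genes called). In KOPT-K1 none was higher and 4 lower (median -0.62, 38.1% called). In TALL-1 1 was higher and 4 lower (median -1.64, 45.9% called). NOTCH3, a NOTCH receptor in the same list, fell in all 9 comparisons with a control. It averaged 6.93 TPM with BRM014 and 20.5 TPM with DMSO at 8 days in Jurkat (-1.43) and 4.09 TPM with BRM014 and 35.4 TPM with DMSO in KOPT-K1 (-2.84). Of 8 tested thymocyte genes reported to need SATB1, 4 were higher and 4 lower at 6 h in Jurkat (median -0.08, 47.4% of all genes called) and 2 higher and 4 lower at 8 days (median -0.21, 59.9% of all genes called). RAG1, which cuts antigen-receptor genes, averaged 10.3 TPM with BRM014 and 18.8 TPM with DMSO at 6 h, and 4.25 TPM with BRM014 and 25.8 TPM with DMSO at 8 days (-2.32). It is 1 gene of this list, and whether it depends on SATB1 in these cells was not tested. Of 19 other tested T-lineage regulators 7 were higher and 9 lower at 6 h (median -0.16) and 10 higher and 6 lower at 8 days (median 0.32). Of 5 tested family relatives 2 were higher at 6 h (median -0.04), and at 8 days 2 were higher and 1 lower (median 0.05). The shares of all genes called at the 2 times were again 47.4% and 59.9%.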

How the data were processed

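RNA-seq of 45 libraries was deposited by the authors as 2 tables of TPM (transcripts per 1000000), 1 for Jurkat and 1 for the other lines, with symbols and gene lengths. Per the submitters' processing notes the build was hg38 and the tools HISAT2 2.2.1, featureCounts 2.0.3 and DESeq2 1.38.2. Per the labels' protocols Jurkat RNA came from a Maxwell kit and a library kit without strand, and RNA of the other lines from an RNeasy kit and a directional library kit. TPM sums to 1000000 in each library, so a change of abundant genes shifts the rest. The mitochondrial share of TPM was 20.01 to 24.92% in Jurkat libraries and 4.995 to 8.041% elsewhere. TPM times length gave whole reads, within 0.01, for 100% of values above 0, and those reads gave the depth and entered limma-voom as an alternative.

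A gene was tested where 3 or more libraries of its table reached 1 TPM, which left 17936 genes for Jurkat and 16241 for the second table. Log2(TPM + 1) was fitted with limma 3.58.1 in R 4.3.3 (trend, robust), all groups of a table in 1 fit, and p-values were adjusted by Benjamini-Hochberg over all tested genes (threshold 0.05). A fold change on this scale understates the change of low genes. The fit was tested on simulated data. There were 21 comparisons, of which 9 had a control group. Intervals and read counts cover the spread between libraries or counting error only. The labels call the libraries biological replicates without saying how they were kept apart, so p-values measure the spread between these libraries, which may be technical. That spread was uneven. Measured as chi-square per degree of freedom between the reads of 2 replicates, it ran from 2.48 to 44.3. TALL-1 DMSO replicate 3 stood at 44.3 and 43.6 from its mates, which stood at 3.26 from each other. Jurkat DMSO replicate 1 of 8 days stood at 18.5 and 27.6, and CCRF-CEM replicate 3 at 20.3 to 36.0.

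The genes, the lists and the tests were chosen with earlier results of these data known. The rule covered all 8 factors and their antisense genes in every comparison, and up to 3 genes per list with the largest change among those called. It also covered 3 genes per factor most like it over the Jurkat groups, out of 1706 genes that change in Jurkat. Not every value that the rule covered is printed. Lists of NK, erythroid and megakaryocyte, and epithelial and fibroblast markers were summed too, at 2.40 to 11.3, 2.31 to 8.46 and 2.23 to 9.74 TPM in Jurkat libraries and 10.1 to 232, 0.0328 to 0.725 and 0.0236 to 9.88 TPM in the other lines.

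Replicate numbers are shared between groups. Departures from group means correlated at 0.12, 0.29 and 0.45 for the 3 numbers in CCRF-CEM, all over 0.1, which pairs them there. In every other comparison at least 1 number was lower. In Jurkat at 6 h (0.17, 0.30 and 0.09), KOPT-K1, TALL-1 and gARID1A_1B each number still correlated best with the control library of its own number. Pairing in those comparisons was therefore not settled. Promoter windows came from RefSeq, which matched 7 of the 8 genes. The TOX sequence is not shown. Figures were drawn with matplotlib 3.10.9 in Python 3.11.15.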

Additional observations from a re-analysis of the deposited data

Results flagged for a closer look

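The values here are differences between 2 BRM014 effects, each tested as a contrast in limma and called at an adjusted p under 0.05. Between 8 days and 6 h in Jurkat the effect on TOX2 differed by 1.92 ± 0.30 (adjusted p = 2.7e-05), on SATB1 by 1.33 ± 0.07 (adjusted p = 1.3e-11), on TOX by 1.10 ± 0.21 (adjusted p = 0.00029), on IKZF1 by 0.79 ± 0.12 (adjusted p = 1.7e-05) and on TCF7 by 0.38 ± 0.11 (adjusted p = 0.0083). The 8-day effect was the more negative for IKZF3, by -1.10 ± 0.11 (adjusted p = 4.2e-08), IKZF2, by -0.73 ± 0.17 (adjusted p = 0.0011), and LEF1, by -0.45 ± 0.11 (adjusted p = 0.002, or -0.29 without Jurkat DMSO replicate 1 of 8 days).

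Between TALL-1 and KOPT-K1 the effect was the more negative in TALL-1 for LEF1 (-1.52, adjusted p = 9.4e-08), IKZF2 (-0.99, adjusted p = 4.5e-05), TCF7 (-0.92, adjusted p = 0.00076) and IKZF1 (-0.42, adjusted p = 0.0064), and the more positive for SATB1 (0.82, adjusted p = 0.0011) and TOX (0.55, adjusted p = 0.0028). Between TALL-1 and CCRF-CEM it was the more negative in TALL-1 for TCF7 (-1.59, adjusted p = 5.5e-06) and LEF1 (-0.94, adjusted p = 1.1e-05), and the more positive for SATB1 (1.44, adjusted p = 8.1e-06). Between CCRF-CEM and KOPT-K1 it was the more negative in CCRF-CEM for IKZF2 (-0.81, adjusted p = 0.00037), SATB1 (-0.62, adjusted p = 0.011) and LEF1 (-0.59, adjusted p = 0.00093), and the less negative for TCF7 (0.67, adjusted p = 0.0091).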

How the results depend on the processing

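No factor's fold change reversed its sign as a call under any alternative run. The alternatives were a pseudocount of 0.1, no filter or a filter of 5 TPM, median-ratio rescaling, mitochondrial genes left out, limma without trend and not robust, fits of only the groups compared, the replicate number as a block, limma-voom, and each library left out. Rescaling made 7 of 159 factor values lose their call and 8 gain it. With only the groups compared, 8 factors were called in gSMARCA4_A2 against gAAVS1 (5 in the shared fit), 4 in gSMARCA4 against gARID1A (2) and 2 in DMSO at 8 days against 6 h (4). In such fits TOX was also called wherever guide groups against cBAF subunits were set against each other (limma adjusted p = 0.0018 to 0.039). With no filter, 1 factor was called in gSMARCA4_A2 against gSMARCA4 and 1 in gSMARCA4 against gARID1A (2 each with it). With 1 library left out, 1 to 3 factors were called in gSMARCA4_A2 against gSMARCA4 and 1 to 2 in gSMARCA4 against gARID1A, and in the 9 comparisons with a control the count moved by at most 1. The cause was not tested. A fit without CCRF-CEM replicate 3 in both groups was added after seeing the data and called 6 of 7 factors there (7 with it). The replicate block, as paired in CCRF-CEM, changed no call of a BRM014 effect there. Elsewhere the labels give only a shared number, and pairing was not settled. With the block TOX became called in gSMARCA4 against gAAVS1 (-0.33, adjusted p = 0.0037) and in 3 comparisons between guides, and SATB1 in TALL-1 against KOPT-K1 DMSO (-0.20, adjusted p = 0.028). Depth limits TOX2 and IKZF3 in CCRF-CEM and TALL-1, where libraries held at most 105 reads of either.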

Other observations

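Other regulators of the T lineage moved in some lines and groups by as much as the 8 factors. GATA3, a factor needed early in T-cell development, fell within 6 h of BRM014 in CCRF-CEM (20.7 TPM with BRM014, 51.4 TPM with DMSO, -1.27), KOPT-K1 (36.3 TPM with BRM014, 68.3 TPM with DMSO, -0.89) and TALL-1 (15.8 TPM with BRM014, 50.4 TPM with DMSO, -1.61), and rose in Jurkat gSMARCA4_A2 (104 TPM, against 49.5 TPM in gAAVS1, 1.05). ID2, an inhibitor of E proteins, rose in Jurkat with BRM014 at 8 days (43.3 TPM with BRM014, 6.74 TPM with DMSO, 2.52) and in gSMARCA4_A2 (88.9 TPM, against 12.3 TPM in gAAVS1, 2.76). KLF2, a factor of T-cell trafficking, fell in gARID1A_1B (4.05 TPM, against 29.3 TPM in gAAVS1, -2.59). IKZF4, the Ikaros relative known from regulatory T cells, fell in KOPT-K1 (6.29 TPM with BRM014, 13.7 TPM with DMSO, -1.01), the line in which IKZF2 was not called. CCR7, a homing receptor, averaged 0.822 TPM with BRM014 and 21.0 TPM with DMSO in CCRF-CEM (-3.59). All values are limma log2 fold changes of TPM + 1 called at an adjusted p under 0.05.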
